A study of Mus musculus with 6 samples.

Results

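The Kruppel-like factors (Klf) are transcription factors with 3 zinc fingers at the C-terminus, through which they bind GC-rich and CACCC sequences in promoters, and the rest of each protein decides whether the bound gene is activated or repressed. *Klf10* and *Klf11* were first known as genes induced early by TGF-beta, the family to which bone morphogenetic proteins (BMPs) belong, and *Klf4* and *Klf5* are known for their roles in epithelium. The 10 genes *Klf2*, *Klf3*, *Klf4*, *Klf5*, *Klf6*, *Klf7*, *Klf9*, *Klf10*, *Klf11* and *Klf13* were chosen by name from the 55809 genes of the deposited counts, and all 10 were detected and tested.

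RNA was sequenced from HC11 cells, an established epithelial line of the mouse mammary gland, with 3 libraries from cells given BMP7 protein in their medium (BMP7) and 3 from cells in the same medium without it (Ctrl). The study asked which genes of these cells respond to BMP7, and its methods describe a shorter and a longer stimulation after starvation without naming the one used for sequencing. The labels do not say whether the libraries of a group came from separate cultures, so p-values measure the spread between these libraries, which may be technical. The count columns number the BMP7 libraries 1, 3 and 4 and the Ctrl libraries 1, 2 and 3, and these numbers are used as names.

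The libraries held between 14607938 (BMP7 library 1) and 23748970 (BMP7 library 3) counted fragments. *Id1*, a direct target of BMP signaling, was between 7.61 and 8.21 CPM (the counts of a gene relative to the TMM-scaled size of its library) in Ctrl and between 142 and 162 with BMP7. Of the epithelial markers, *Krt5* and *Krt14*, keratins of basal cells, were at 1203 ± 19.4 and 1985 ± 71.5 CPM per kb of exon in Ctrl (SD, n = 3), *Epcam* at 291 ± 3.61, and the luminal *Krt8* at 32.3 ± 2.34, while *Krt19*, another luminal keratin, was below the expression filter. BMP7 libraries 3 and 4 stood apart from BMP7 library 1 in genes of other cell types. The summed level of 8 adipocyte markers was 75.5 and 67.5 CPM in BMP7 libraries 3 and 4, 32.1 in BMP7 library 1 and between 20.2 and 28.7 in Ctrl, and that of 8 macrophage markers was 23.4 and 21.9 in BMP7 libraries 3 and 4, 44.4 in BMP7 library 1 and between 41.8 and 46.0 in Ctrl. Much of the macrophage difference was *Lyz2*, at 25.5 to 26.6 CPM in Ctrl and 22.5 in BMP7 library 1. It was at 6.76 and 6.94 in BMP7 libraries 3 and 4. *Csf1r*, *Adgre1* and *Tyrobp* were also lowest in BMP7 libraries 3 and 4. *Cd68* in all BMP7 libraries, and *C1qa* in BMP7 libraries 3 and 4, lay above Ctrl. *C1qb* and *C1qc* did not fall below Ctrl in both. Of 6 endothelial markers only *Pecam1* passed the expression filter, and the defining genes *Cdh5*, *Kdr*, *Tek*, *Tie1* and *Emcn* were at most 0.356 CPM in any library. Of 6 lymphocyte markers *Cd3e* and *Cd3d* had at most 0.0551 CPM in any library.

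*Klf10* was the only one of the 10 genes called higher with BMP7, and *Klf11*, the other TGF-beta-inducible gene, was the only one called lower, by a small margin. The remaining 8, with *Klf4* and *Klf5* among them, did not pass both thresholds, which were a p under 0.05 in the quasi-likelihood test of edgeR, Benjamini-Hochberg adjusted over all 15733 genes tested, and a fold change above 1.2. Of all genes tested, 5.99% were called higher and 5.38% lower, or 11.4% in either direction, so 2 of 10 is read against that share. The median log2 fold change of the 10 genes was -0.0255, beside -0.0062 for all genes tested.

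*Klf10* and *Klf11* share the sequence of their zinc fingers more than the rest of their length, so the fingers are where their fragments are most alike. Assignment of fragments between the 2 genes was not tested. The stretches below are 180 bases of the coding sequence of each gene over the first and second fingers (GENCODE vM21 transcripts on GRCm38). That of *Klf10* lies on the minus strand in 2 exons at chr15:38296615-38296692 and chr15:38296063-38296164, and that of *Klf11* on the plus strand in 2 exons at chr12:24655699-24655776 and chr12:24660183-24660284. Capitals mark bases that are identical in both, which are 135 of 180 (75%).
Klf10: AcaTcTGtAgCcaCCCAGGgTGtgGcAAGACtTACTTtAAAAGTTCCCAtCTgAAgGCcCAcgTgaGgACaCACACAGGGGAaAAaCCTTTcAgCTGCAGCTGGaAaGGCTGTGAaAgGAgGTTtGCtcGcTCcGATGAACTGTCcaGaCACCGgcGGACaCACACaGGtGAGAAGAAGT
Klf11: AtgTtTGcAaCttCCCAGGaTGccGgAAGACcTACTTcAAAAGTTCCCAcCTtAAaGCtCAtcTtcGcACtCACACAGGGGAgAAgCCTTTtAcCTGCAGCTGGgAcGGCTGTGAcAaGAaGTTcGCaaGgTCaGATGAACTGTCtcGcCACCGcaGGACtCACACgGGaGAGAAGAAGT
The longest run of identical bases between the 2 coding sequences was 13. No other gene's transcript matched that of *Klf10* or *Klf11* over at least 100 bases at 95% identity, and in the deposited annotation no exon base of either overlapped another gene.

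*Klf10* encodes a repressor that is induced within a short time of TGF-beta signaling. Its exons lie on chromosome 15 from 38291707 to 38300950 of the mm39 annotation used for counting, on the minus strand. The Ctrl libraries 1, 2 and 3 were at 80.8, 79.0 and 81.5 CPM, and the BMP7 libraries 1, 3 and 4 at 129, 121 and 118. The groups did not overlap, and BMP7 library 1 was the highest. The mean rose from 80.4 ± 1.33 to 123 ± 5.53 CPM (SD, n = 3 each). On the log2 scale this was 0.61 with a standard error of 0.06 and a 95% interval of 0.48 to 0.74 (edgeR adjusted p = 2.45e-06 after Benjamini-Hochberg), or 1.52-fold. Of all genes tested, 4.74% had a larger log2 fold change. It stayed past both thresholds under all 14 alternatives, with a log2 fold change between 0.57 and 0.68, and was at 0.68 without both BMP7 libraries 3 and 4.

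*Klf11* encodes a close relative of *Klf10* that recruits the Sin3 corepressor and is likewise inducible by TGF-beta. It lies on chromosome 12 from 24701273 to 24712788 (mm39), on the plus strand. The Ctrl libraries 1, 2 and 3 were at 39.1, 34.5 and 40.8 CPM, and the BMP7 libraries 1, 3 and 4 at 31.1, 31.7 and 31.9. Again the groups did not overlap, and Ctrl library 2 came nearest to the BMP7 libraries, which lay close together. The mean fell from 38.2 ± 3.26 to 31.6 ± 0.421 CPM (SD, n = 3 each). On the log2 scale the difference was -0.27 with a standard error of 0.08 and a 95% interval of -0.44 to -0.11 (edgeR adjusted p = 0.0297). This call did not hold without 1 library. When Ctrl 1, Ctrl 3, BMP7 1, BMP7 3 or BMP7 4 was left out in turn, the edgeR adjusted p was between 0.051 and 0.145, and it was 0.0187 without Ctrl library 2, where the log2 fold change was -0.34. The sign was negative in all 14 alternatives.

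*Klf13*, with the close relative *Klf9*, belongs to the Sin3-binding repressors as well. It lies on chromosome 7 from 63536099 to 63588663 (mm39), on the minus strand. The Ctrl libraries 1, 2 and 3 were at 222, 213 and 209 CPM, and the BMP7 libraries 1, 3 and 4 at 185, 188 and 193. All BMP7 libraries lay below all Ctrl libraries. Its log2 fold change was -0.19 (standard error 0.06, 95% interval -0.31 to -0.06), with an adjusted p of 0.0407 from the same edgeR test and a change smaller than 1.2-fold, so it was called by adjusted p alone and not by both thresholds. That call was lost when Ctrl 1, Ctrl 2, Ctrl 3, BMP7 1 or BMP7 3 was left out in turn (edgeR adjusted p between 0.07595 and 0.1696), and without BMP7 4 the edgeR adjusted p was 0.04547. By adjusted p alone, 1 of the 10 genes was higher and 2 were lower, beside 7.33% and 6.42% of all genes tested. The groups did not overlap for 3 of the 10 genes, beside 29.8% of all genes tested.

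*Klf9*, which is known for its response to glucocorticoid and thyroid hormone, is on chromosome 19 from 23118590 to 23145498 (mm39). It was at 36.5, 34.4 and 32.1 CPM in Ctrl libraries 1, 2 and 3 and at 35.8, 34.2 and 34.6 in BMP7 libraries 1, 3 and 4. The BMP7 libraries all lay inside the Ctrl range, with a log2 fold change of 0.02 (95% interval -0.14 to 0.18).

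**Figure D1:**
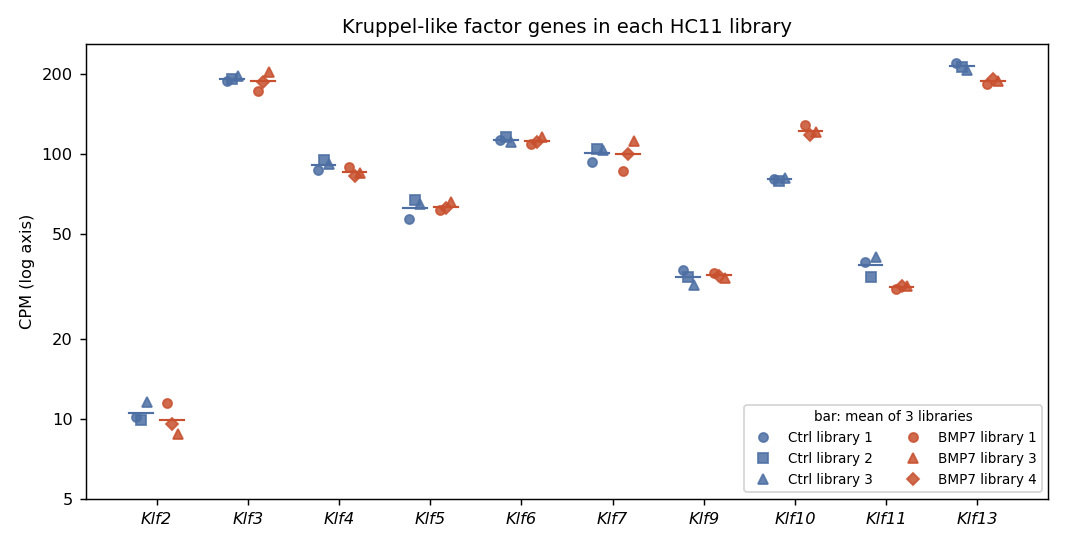
CPM of each of the 10 Kruppel-like genes (log axis) in every library, with Ctrl in blue, BMP7 in red, the symbols marking the library number and bars the mean of 3 libraries. The BMP7 libraries of *Klf10* sit between 118 and 129 CPM, above the Ctrl libraries at 79.0 to 81.5, and those of *Klf11* and *Klf13* sit just below their Ctrl libraries.

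The epithelial pair came next. *Klf4*, a factor of epithelial differentiation and cell cycle exit, is on chromosome 4 from 55527143 to 55532466 (mm39), on the minus strand. It was at 87.5, 94.7 and 92.0 CPM in Ctrl libraries 1, 2 and 3 and at 89.2, 84.98 and 82.9 in BMP7 libraries 1, 3 and 4. BMP7 library 1 lay within the Ctrl range and the other two just below it, with a log2 fold change of -0.09 (95% interval -0.23 to 0.04). *Klf5*, which is linked to proliferation of basal epithelial cells, is on chromosome 14 from 99536127 to 99552472, on the plus strand. It was at 56.7, 67.0 and 64.6 CPM in Ctrl and at 61.8, 65.8 and 62.7 with BMP7, in the same order of libraries. All BMP7 values of *Klf5* lay within the Ctrl range, which Ctrl library 1 extended downward, and the log2 fold change was 0.02 (95% interval -0.14 to 0.17). In the same libraries, 9 of 10 listed epithelial markers were tested, of which 2 were higher (*Krt14* and *Krt17*, log2 fold changes 0.43 and 0.89) and 3 lower (*Cdh1*, *Epcam* and *Krt18*, -0.27, -0.42 and -0.67), with a median of -0.03. *Cdh1* lost its call in 6 of 14 alternatives, among them the fits without Ctrl 2, Ctrl 3 or BMP7 1.

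*Klf2*, known from endothelium and lymphocytes, was the least abundant of the 10 genes. It is on chromosome 8 from 73072877 to 73075500 (mm39), and was at 10.2, 9.93 and 11.6 CPM in Ctrl libraries 1, 2 and 3 and at 11.5, 8.76 and 9.59 in BMP7 libraries 1, 3 and 4. BMP7 library 1 was near the top of the Ctrl range and the other two below it, and the log2 fold change was -0.10 (95% interval -0.38 to 0.18). Of the 10 genes it had the fewest counts, between 165 and 237 per library, and the widest interval. Of the endothelial and lymphocyte markers in the same libraries, *Pecam1* was between 12.98 and 25.7 CPM and *Ptprc* between 0.992 and 3.90, and their part in the level of *Klf2* was not tested. In bulk RNA, fewer cells of a type and less RNA per cell cannot be told apart.

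*Klf6* and *Klf7* are close relatives that activate many genes of growth and differentiation. *Klf6*, on chromosome 13 from 5911481 to 5920393 (mm39), was at 113, 117 and 111 CPM in Ctrl libraries 1, 2 and 3 and at 109, 116 and 111 in BMP7 libraries 1, 3 and 4, a log2 fold change of -0.015 (95% interval -0.14 to 0.11). The groups overlapped almost wholly. *Klf7*, on chromosome 1 from 64068606 to 64161441, was at 93.6, 105 and 104 CPM in Ctrl and at 86.8, 112 and 100 with BMP7, a log2 fold change of -0.0097 (95% interval -0.18 to 0.16). Its BMP7 libraries lay on both sides of the Ctrl libraries, with BMP7 library 1 the lowest of all 6 and BMP7 library 3 the highest. In the annotation used for counting, *Klf7* shares 4 exon bases with *Gm13748* (0.0492% of its exon length). Among GENCODE vM21 transcripts, *Gm26649* matches 41.9% of the *Klf7* transcript, and counting did not use strand.

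*Klf3*, a repressor that works through the CtBP corepressors, is on chromosome 5 from 64960731 to 64990244 (mm39). It was at 189, 193 and 197 CPM in Ctrl libraries 1, 2 and 3 and at 173, 205 and 186 in BMP7 libraries 1, 3 and 4, a log2 fold change of -0.04 (95% interval -0.18 to 0.10). As for *Klf7*, the BMP7 libraries reached below and above the Ctrl range. It shares 404 exon bases (3.59%) with *Gm20033*.

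Of the 8 genes not called, 7 had overlapping groups. For 6 of the 8 (*Klf3*, *Klf4*, *Klf5*, *Klf6*, *Klf7* and *Klf9*) the whole 95% interval lay within a fold change of 1.2 in either direction. The intervals of *Klf2* (0.770-fold to 1.13-fold) and *Klf13* (0.809-fold to 0.956-fold) reached past a fall of that size. The unadjusted p of these 8 genes was between 0.00508 and 0.907. DESeq2 on the same genes called *Klf10* higher and *Klf11* lower at the same thresholds (adjusted p = 9.28e-17 and 0.0427), where it called 10.6% of all genes.

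**Figure D2:**
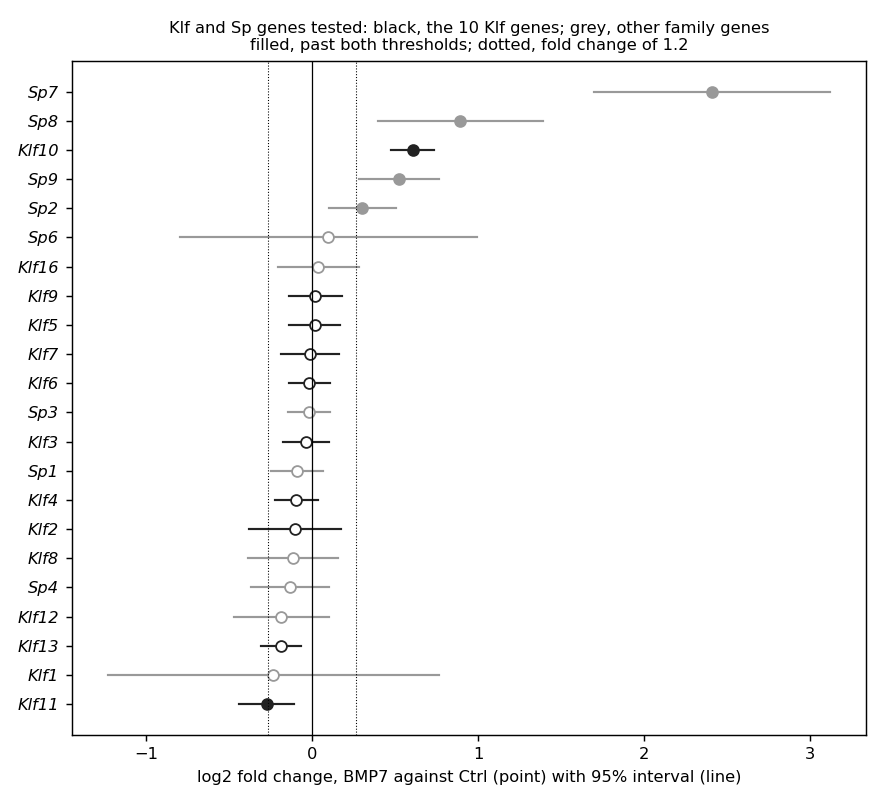
Log2 fold change of BMP7 against Ctrl (point) with its 95% interval (line) for the 10 Kruppel-like genes (black) and the 12 other tested Klf and Sp genes (grey), ordered by size. Points past both thresholds are filled, and of the 10 genes only *Klf10* at 0.61 and *Klf11* at -0.27 are.

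Levels were then compared between the genes as CPM per kb of exon. The length counts the exon bases of all annotated transcripts of a gene, which were 11243 for *Klf3*, 4179 for *Klf10* and 3049 for *Klf4*. Their GENCODE vM21 transcripts with the longest coding sequence held 5221, 3044 and 3029 bases. The order and the shares below therefore depend on the length used. In Ctrl the order was *Klf4* (30.0 ± 1.21), *Klf13* (28.5 ± 0.871), *Klf6* (25.9 ± 0.632), *Klf10* (19.3 ± 0.318), *Klf3* (17.2 ± 0.360), *Klf7* (12.4 ± 0.768), *Klf5* (12.1 ± 1.03), *Klf11* (8.79 ± 0.751), *Klf9* (7.13 ± 0.464) and *Klf2* (5.73 ± 0.481), each as CPM per kb with the SD of 3 libraries. The neighbours *Klf4* and *Klf13*, and *Klf7* and *Klf5*, had overlapping libraries, and the other neighbours did not. With BMP7, *Klf10* moved from the fourth place to the first at 29.3 ± 1.32 CPM per kb, where its libraries overlapped those of *Klf4* at 28.1 ± 1.05. *Klf6* (25.6 ± 0.853) and *Klf13* (25.1 ± 0.534) now overlapped, and so did *Klf11* (7.27 ± 0.0970) and *Klf9* (7.24 ± 0.166), as *Klf7* and *Klf5* had in Ctrl.

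The summed level of the 10 genes was between 165 and 168 CPM per kb in Ctrl and between 167 and 172 with BMP7, with overlapping groups. Within that sum the share of *Klf10* went from 11.5% ± 0.272 in Ctrl to 17.3% ± 0.825 with BMP7 (SD, n = 3). The share of *Klf13* went from 17.1% ± 0.712 to 14.8% ± 0.454, that of *Klf11* from 5.27% ± 0.475 to 4.30% ± 0.0890, and that of *Klf4* from 18.0% ± 0.521 to 16.6% ± 0.674. These shares move against each other by construction and were not tested.

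**Figure D3:**
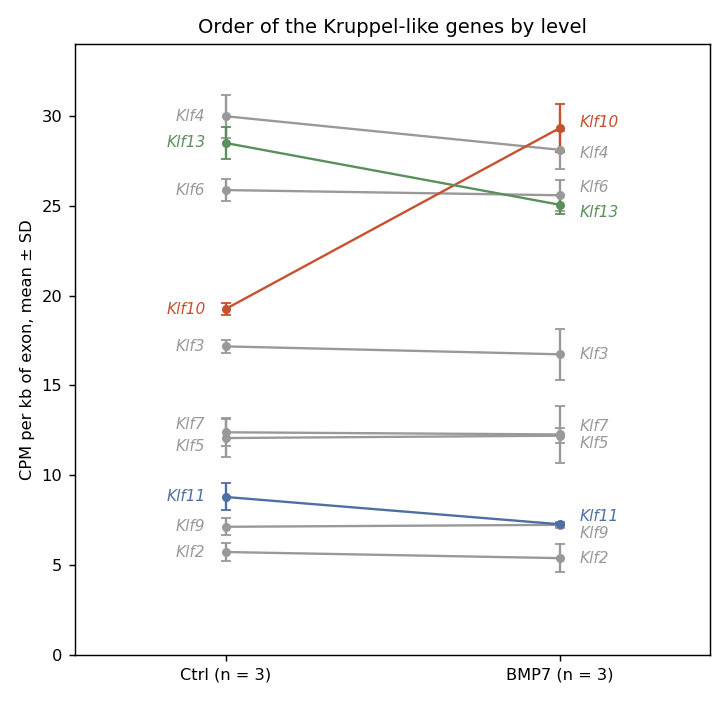
Mean CPM per kb of exon (± SD, 3 libraries) of the 10 Kruppel-like genes in Ctrl and with BMP7, joined by lines. *Klf10* (red) rises from 19.3 to 29.3 and passes *Klf6*, *Klf13* (green) and *Klf4*, while *Klf11* (blue) falls from 8.79 to 7.27, to the level of *Klf9*. The order between genes depends on the exon length used.

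Ratios within 5 pairs of related genes were compared per library, as log2 ratios of CPM per kb with a prior count of 2. They use the same counts as the fold changes above. A difference in *Klf10*/*Klf11* thus restates the rise of *Klf10* and the fall of *Klf11* and is no separate result. The *Klf10*/*Klf11* log2 ratio was 1.10, 1.25 and 1.05 in Ctrl libraries 1, 2 and 3 and 2.10, 1.99 and 1.94 in BMP7 libraries 1, 3 and 4. The groups stood well apart, and the mean went from 1.13 ± 0.102 to 2.01 ± 0.0838 (SD, n = 3 each), a difference of 0.88 (exact permutation test, two-sided p = 0.1, adjusted p = 0.25 over the 5 pairs). The *Klf9*/*Klf13* ratio went from -1.9966 ± 0.0514 to -1.79 ± 0.0581, a difference of 0.21, also without overlap and with the same exact p-values. The p of 0.1 is the smallest that 3 libraries against 3 allow, so no pair could pass 0.05. The *Klf4*/*Klf5* ratio went from 1.31 ± 0.0690 to 1.2031 ± 0.0846 (difference -0.11, exact permutation p = 0.3, adjusted p = 0.5). The *Klf2*/*Klf4* and *Klf6*/*Klf7* ratios differed by -0.0008 and 0.0035 between the groups, less than their spread between libraries (exact permutation p = 1 for both).

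**Figure D4:**
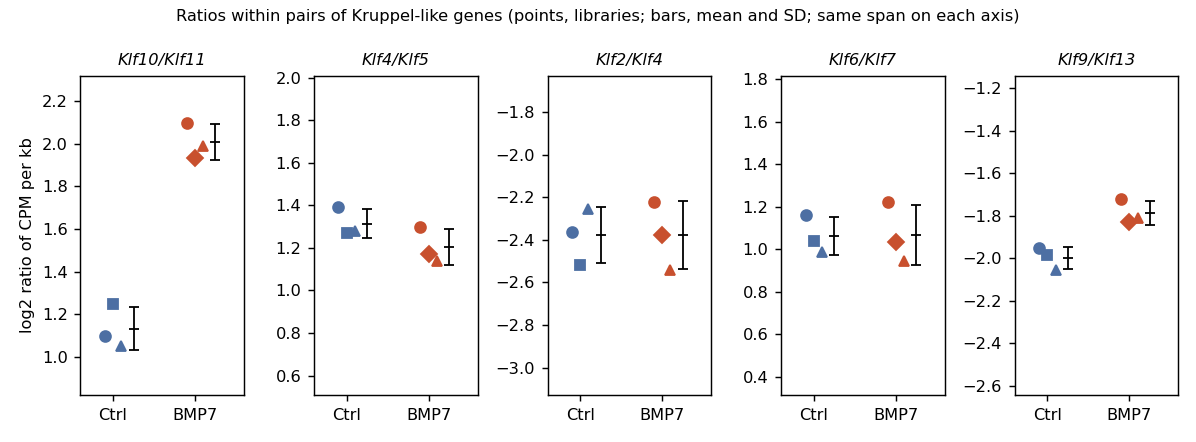
Log2 ratio of CPM per kb within 5 pairs of Kruppel-like genes in each library (points, Ctrl blue and BMP7 red) with the mean and SD of 3 libraries beside them, on axes of equal span. The *Klf10*/*Klf11* ratio lies between 1.05 and 1.25 in Ctrl and between 1.94 and 2.10 with BMP7, and the other pairs move less.

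The 250 bases before the start site were read from the RefSeq promoter table (GRCm38.p6), which matched 8 of the 10 genes (*Klf2*, *Klf3*, *Klf4*, *Klf6*, *Klf7*, *Klf9*, *Klf11* and *Klf13*). The stretches of *Klf11*, at chr12:24651121-24651370 on the plus strand, and *Klf13*, at chr7:63938916-63939165 on the minus strand, are shown because these 2 genes lay lower with BMP7 in every library. Capitals mark the GC box GGGCGG, on either strand, a sequence bound by Klf and Sp proteins.
Klf11: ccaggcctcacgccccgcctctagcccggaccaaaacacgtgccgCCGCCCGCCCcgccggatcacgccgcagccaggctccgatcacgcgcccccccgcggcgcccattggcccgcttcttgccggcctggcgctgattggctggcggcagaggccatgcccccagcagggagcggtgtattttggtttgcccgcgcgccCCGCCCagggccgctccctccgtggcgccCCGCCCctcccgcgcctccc
Klf13: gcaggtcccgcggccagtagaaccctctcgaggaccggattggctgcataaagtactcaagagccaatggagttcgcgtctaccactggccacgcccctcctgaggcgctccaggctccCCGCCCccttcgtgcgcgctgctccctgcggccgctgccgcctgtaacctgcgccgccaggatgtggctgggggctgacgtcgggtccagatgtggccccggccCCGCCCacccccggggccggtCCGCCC
The GC box stood 4 times in the *Klf11* window and 3 times in that of *Klf13*, and at least once in 7 of the 8 windows, beside 32.7% of all 32851 promoters of the table. These windows are GC-rich, between 59.2% and 78.4%. The GC-rich Smad1/5 site GGCGCC, which can share bases with a GC box, stood 2 times in the *Klf11* window and in no other of the 8, beside 9.59% of all promoters with at least 1. The Smad site CAGAC stood in 1 window (that of *Klf3*, beside 42.2% of all promoters) and CACCC in 5 (beside 52% of all promoters), with matches counted on both strands and overlaps included.

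Among 16 other Klf and Sp genes, 12 were tested, of which 4 were higher with BMP7 and 0 lower, with a median log2 fold change of 0.01. All 4 were Sp genes, which share the zinc fingers of the Klf proteins. The 8 not called were *Klf1*, *Klf8*, *Klf12*, *Klf16*, *Sp1*, *Sp3*, *Sp4* and *Sp6*. Their log2 fold changes ran from -0.23 (*Klf1*) to 0.10 (*Sp6*). *Sp7*, the osteoblast factor osterix, was at 0.578, 0.639 and 0.342 CPM in Ctrl libraries 1, 2 and 3 and at 2.86, 3.33 and 2.15 in BMP7 libraries 1, 3 and 4, which is 2.41 on the log2 scale with a standard error of 0.34 (edgeR adjusted p = 9.2e-05). It had between 7 and 13 counts per Ctrl library, so its size is imprecise. *Sp8* and *Sp9*, known from the limb bud and the forebrain, were higher by 0.89 and 0.52 on the log2 scale (edgeR adjusted p = 0.0176 and 0.00467), both with no overlap between the groups. *Sp2* was higher by 0.30 on the log2 scale (edgeR adjusted p = 0.0456) with overlapping groups, and shares 14.3% of its exon length with *D030028A08Rik*. Of these 4, *Sp7* held in every alternative that tested it, *Sp9* in 12 of 14, *Sp8* in 10 and *Sp2* in 8, and 0 of the 4 changed sign. *Klf14*, *Klf17* and *Sp5* had 0 counts in all 6 libraries, and *Klf15* had at most 5.

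Other genes of the pathways around the Kruppel-like factors were counted by lists written from general knowledge, with earlier results of these data known. Their counts stand beside 5.99% called higher and 5.38% called lower of all genes tested. Of 8 corepressors and ubiquitin ligases that act with Klf proteins, 8 were tested, 1 was higher (*Hdac2*, a histone deacetylase of the Sin3 complex, log2 fold change 0.29) and 0 were lower, with a median of 0.05. *Hdac2* was not called without BMP7 library 3 or with glmTreat, which tests against the 1.2-fold threshold. Of 11 early target genes of BMP and TGF-beta, 9 were higher and 0 lower, with a median of 1.39, beside which the 0.61 of *Klf10* was smaller than each of the 9 (the lowest was 0.79 for *Ccn2*). *Smad7*, an inhibitory Smad that Klf10 and Klf11 are reported to repress, had a log2 fold change of 2.81. *Junb*, *Skil* and *Pmepa1* had 1.39, 0.90 and 0.83, and *Tgif1* (-0.06) and *Atf3* (0.03) were not called.

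Several Klf genes are induced by growth factors in the same way as immediate-early genes. Of 12 listed immediate-early genes 11 were tested, with 3 higher (*Fos*, *Jun* and *Junb*, log2 fold changes 0.54, 1.32 and 1.39), 3 lower (*Egr1*, *Egr2* and *Egr3*, -0.36, -1.01 and -1.38) and a median of -0.11. *Egr1*, whose groups overlapped, lost its call in 6 of 14 alternatives and *Egr3* in 6 of 13, where *Egr3* ranged from -1.82 to -0.64. *Egr1* was not called without Ctrl 2, Ctrl 3, BMP7 1 or BMP7 4, and *Egr3* not without Ctrl 2, Ctrl 3, BMP7 3 or BMP7 4. Of 7 genes of the ERK5 and MEF2 route that induces *Klf2* and *Klf4*, 1 was higher (*Mef2c*, 0.81), 0 were lower and the median was 0.0089. Of 8 glucocorticoid-induced genes, a class to which *Klf9* itself belongs, 7 were tested and 2 were higher (*Sgk1*, 1.86, and *Dusp1*, 0.47) with 0 lower and a median of 0.18. *Dusp1* lost its call in 6 of 14 alternatives, among them each fit without 1 library other than BMP7 4. The other tested genes of the list were not called. *Fkbp5*, *Tsc22d3* and *Errfi1* had log2 fold changes of -0.20, -0.09 and 0.0018. *Per1* and *Cebpd* had 0.18 and 0.30, and all BMP7 libraries of *Per1* lay above its Ctrl libraries. Of 11 genes reported as direct Klf targets 9 were tested, with 3 higher (*Cdkn1a*, 0.78, *Smad7*, and *Lgals3*, 0.44), 2 lower (*Ccnd1*, -0.39, and *Cdh1*) and a median of 0.35. Of these, *Cdkn1a*, an inhibitor of the cell cycle induced by Klf4 and Klf6, was called in all 14 alternatives, and *Ccnd1*, which Klf5 is reported to activate, in 6 of 14. The median of this list is the value of *Nos3*, which had between 6 and 16 counts per library and was not called.

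Markers of other cell types that have Klf genes of their own moved between the groups as well. All 6 tested of 8 adipocyte markers were higher (log2 fold changes 0.43 to 2.05, median 1.81), 1 of 6 tested macrophage markers was lower (*Lyz2*, -1.18, median of the list -0.89), 1 of 2 tested lymphocyte markers was lower (*Ptprc*, -1.18), and the 1 tested endothelial marker was higher (*Pecam1*, 0.77). *Cd68*, another tested macrophage marker, was at 0.27 with all BMP7 libraries above Ctrl and was not called. *Pparg*, a defining adipocyte gene of the list, had at most 0.148 CPM in any library, and *Lep* was also below the expression filter. *Adipoq*, *Plin1* and *Cidec* were between 0.391 and 1.16 CPM in Ctrl. Of 4 tested fibroblast markers 2 were higher (*Col3a1*, 0.65, and *Dcn*, 1.67) and 1 lower (*Col1a1*, -0.41). Without BMP7 library 3, *Adipoq*, *Plin1*, *Lipe*, *Lyz2*, *Ptprc* and *Col3a1* lost their calls. Without both BMP7 libraries 3 and 4, *Pecam1* was at 0.72 and *Col1a1* at -0.54 on the log2 scale. In that fit *Fabp4*, *Cidec*, *Car3*, *Plin1*, *Adipoq* and *Lipe* were at 0.80, 0.75, 0.56, 0.34, 0.25 and 0.22. *Dcn*, *Col3a1*, *Lyz2* and *Ptprc* were at 0.56, 0.19, -0.21 and -0.23. *Lyz2* lost its call with DESeq2 (adjusted p = 0.2247), and without BMP7 library 1 its log2 fold change was -1.93. In the fit without both libraries, *Klf10* was called (edgeR adjusted p = 3.46e-05), while *Klf11* at -0.29 and *Klf13* at -0.21 had edgeR adjusted p-values of 0.1505 and 0.1001. The part of these marker differences in the values of the Kruppel-like genes was not tested.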

How the data were processed

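The authors aligned read pairs with subjunc (Subread 2.0.3 in the labels) and, per the file headers, used featureCounts 2.0.1 to count fragments by gene name on exons of an annotation named mm39, without strand and without fragments that map to several places or genes. The methods name mm10 for the alignment. The deposited counts are not normalized, and the deposited exon length of each gene was used for CPM per kb. BMP7 columns are numbered 1, 3 and 4 and were mapped to the group only.

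In R 4.3.3, edgeR 4.0.16 (expression filter, TMM, quasi-likelihood test, no covariate) was fitted on all 6 libraries and adjusted over 15733 genes. Thresholds follow the study (adjusted p 0.05, fold change 1.2). CPM has no prior count. Intervals are 95% and use the test's degrees of freedom. Replicates differed by more than sampling noise (chi-square per degree of freedom 5.34 to 12.9). The fit was tested on simulated data. Alternatives were DESeq2 1.42.0 (the tool the study names), other scalings, filters and thresholds, glmTreat, and fits without libraries. Promoters and transcripts were read from RefSeq and GENCODE tables and matched with BLAST 2.17.0. The members and lists were chosen with earlier results of these data known. Named genes are the members, tested Klf and Sp genes, and list genes past the thresholds, else the 2 most abundant, and others were named after their values were seen. A gene of the early target list is not reported here and was left out of its counts.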

Additional observations from a re-analysis of the deposited data

How the results depend on the processing

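*Klf10* stayed higher and past the thresholds under all 14 alternatives. *Klf11* stayed negative under all 14 and was past the thresholds in 7. With glmTreat the count of the 10 genes lower was 0 (adjusted p of *Klf11* 1), and without both BMP7 libraries 3 and 4 it was also 0. With 1 library left out it ranged from 0 to 1, and by adjusted p alone it was 2, which added *Klf13*. Of all genes, glmTreat called 494 higher and 254 lower, and with 1 library left out between 563 and 902 were lower and between 723 and 1081 higher. Of the other Klf and Sp genes, 1 was higher with glmTreat, 2 to 4 with 1 library left out, and 2 higher and 2 lower without both BMP7 libraries 3 and 4. Signs of genes near 0 changed. *Klf5* was at -0.0011 with upper-quartile scaling and -0.0203 without both BMP7 libraries, and *Klf2* at 0.1224 in the latter. With 1 library left out, *Klf3* ranged from -0.1006 to 0.0199, *Klf5* from -0.0508 to 0.0662, *Klf6* from -0.0406 to 0.0038, *Klf7* from -0.1024 to 0.0780 and *Klf9* from -0.0252 to 0.0683, and the ratio differences ranged from -0.0798 to 0.0798 for *Klf2*/*Klf4* and from -0.0740 to 0.0657 for *Klf6*/*Klf7*. The causes were not tested. Of 42 other genes named from the lists, 18 stayed past the thresholds in every alternative that tested them, 24 did not in some, and 0 changed sign. No paired analysis was possible because the BMP7 columns are numbered 1, 3 and 4 and the labels 1, 2 and 3, so no BMP7 column can be tied to a labelled replicate, and nothing says what the numbers 1 and 3 that both groups of columns carry stand for. The fit without 2 BMP7 libraries assumes that the lone library varies like Ctrl.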
